A study of Arabidopsis thaliana with 24 samples.

Results

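After 3 h of osmotic shock, 130 genes of Arabidopsis seedlings stood on opposite sides of their water level in root and shoot. They were chosen from the measured values. The normalized count is the authors' count divided by a size factor for each library, which adjusts for its depth. For each gene the mean of log2(normalized count + 1) over the 3 libraries of a group was taken, and the water value was subtracted from the value after 3 h in polyethylene glycol (PEG). A gene was a member if this difference was at least 0.8 in one organ and at most -0.8 in the other, with a mean normalized count of at least 10 in water or after 3 h of PEG in each organ. Of 18240 genes in the table, 8661 passed the minimum, and 130 of these were members. In 79 genes the value was higher in root and lower in shoot after PEG, and in 51 it was lower in root and higher in shoot. The differences between PEG 3 h and water given below, written as log2 differences, therefore describe how the members were chosen and carry no test.

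Transcripts were counted in 24 libraries from wild type seedlings (ecotype Columbia-0), 7 days old, in 8 groups of 3 biological replicates. Roots were sampled after 1 h in water or after 1, 2 or 3 h in 30% (w/v) PEG of average molecular weight 8000, a polymer that draws water out of the tissue (osmotic pressure given as -2.0 MPa), and shoots in the same 4 conditions. The organs were cut apart after the treatment. All seedlings had been grown on medium with sucrose, and each replicate pooled 30 to 50 of them, so a value is the mean of many plants. Water was sampled at 1 h only, so at 2 and 3 h the PEG and the longer time in solution cannot be told apart. Libraries were made by MARS-seq, which counts transcripts from their 3′ ends.

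A plant short of water does not treat its organs alike. Roots meet the drop in water potential first and go on growing longer than leaves, whereas shoots save water. Genes that respond to the hormone abscisic acid often carry a short promoter element with the core ACGTG. Ribosome production and cell division are costly and follow growth in each organ, and heat shock proteins, which keep damaged proteins from clumping, also respond to several stresses other than heat.

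The total count was 1332586 to 5495746 in root libraries and 343397 to 4009409 in shoot libraries. The shallowest was replicate 2 of shoot PEG 2 h, in which 1 count equals a normalized count of 8.34, so low values in it are coarse. Photosynthesis genes (20 markers, such as RBCS1A and LHCA1) took 11.9% to 14.1% of shoot counts and 0.0853% to 0.175% of root counts, and 19 of the 20 were counted in every root library. Root tissue markers (13 genes, such as CASP1 and EXPA7) took at most 0.00338% of shoot counts, and 11 of them were at 0 in some shoot library. In roots their share was 0.128% to 0.137% in water and 0.0385% to 0.0434% after 3 h of PEG. In shoots the photosynthesis share was 13.1% to 13.8% in water and 11.9% to 12.8% after 3 h. The part of these shifts in the members' values was not tested, and in whole organs fewer cells of a type and less RNA per cell cannot be told apart.

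**Figure D1:**
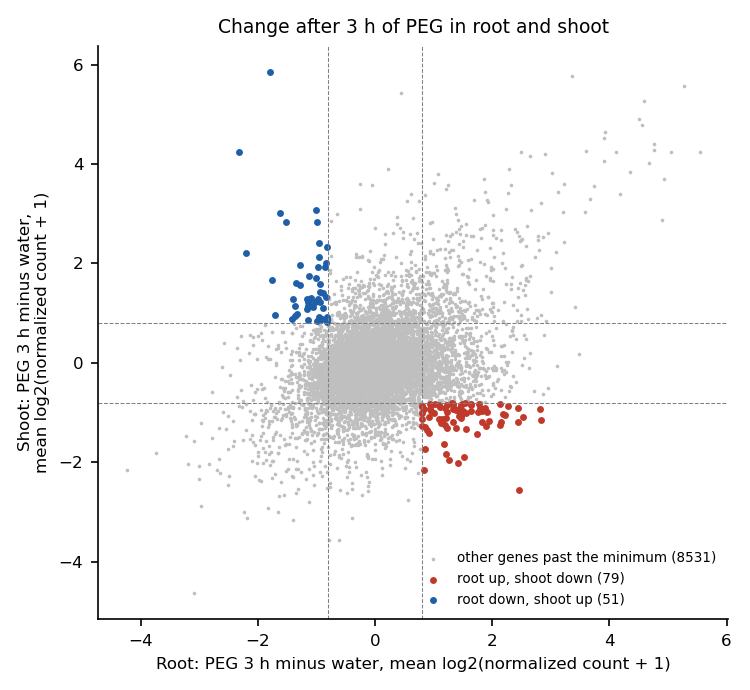
Change of each of the 8661 genes past the minimum after 3 h of PEG, as the difference of mean log2(normalized count + 1) from water, in root (x axis) and shoot (y axis); 1 point is 1 gene and dashed lines mark 0.8 and -0.8. The 79 genes higher in root and lower in shoot sit at the lower right, the 51 of the opposite direction at the upper left, and the gene with the highest shoot value among them, ERF53, reaches 5.86.

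Among the 79 genes higher in root and lower in shoot, the median difference was 1.38 in root (0.80 to 2.83) and -1.0 in shoot (-2.56 to -0.81). Among the 51 of the other direction it was -1.03 in root (-2.32 to -0.81) and 1.28 in shoot (0.83 to 5.86). Over all 8661 genes past the minimum the medians were -0.05 in root and -0.12 in shoot. All 3 PEG 3 h libraries lay on one side of all 3 water libraries in both organs for 55 of the 79 and 48 of the 51. No share over all genes is given for both organs together. In root alone such a separation held for 66 of the 79, where 23.2% of all genes past the minimum lay above water in this way. It held in root for 48 of the 51, where 31% lay below. In shoot alone it held for 66 of the 79, where 30.9% of all genes lay below, and for 49 of the 51, where 20.5% lay above. As the same libraries chose the members, nothing is read from these shares.

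The organs differed in level before PEG, in opposite ways for the 2 directions. In water, the 79 genes were lower in root than in shoot in 73 cases, with a median root minus shoot difference of -1.92 (log2), and all 3 root libraries lay below all 3 shoot libraries in 63 of them. The 51 genes were higher in root than in shoot in 41 cases, with a median of 1.62, and in 37 of them all root libraries lay above all shoot libraries. Over all genes past the minimum the median was 0.41, with 59.1% higher and 40.9% lower in root. All root libraries lay below all shoot libraries in 32.6% of these genes and above them in 49.6%. After 3 h of PEG the medians were 0.71 for the 79 genes, of which 48 (60.8%) were higher in root, and -1.10 for the 51, of which 44 (86.3%) were lower in root. Over all genes past the minimum the median was then 0.33, with 58.7% higher and 41.3% lower in root, so the 48 were near the share of all genes. The rule used these libraries, so the levels are a description.

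In the libraries after 1 and 2 h of PEG, which the rule did not use, root and shoot levels could be tested with edgeR. No digit of the library code is shared between root and shoot libraries at either time, so a batch shown by this digit and the organ cannot be told apart in these tests. Of 15472 genes tested, 82.4% differed between root and shoot after 1 h, 34.2% higher and 48.2% lower in root. After 2 h 83.2% differed, 36.4% higher and 46.7% lower. Among the 79 genes, 24 were called higher and 21 lower in root after 1 h, and 29 higher and 25 lower after 2 h. Among the 51, 14 were called higher and 17 lower after 1 h, and 16 higher and 17 lower after 2 h. Of the 8661 genes past the minimum, which include the members, 76.4% were called after 1 h and 77.7% after 2 h. In these genes, unlike in all genes tested, more were called higher than lower in root. The shares were 47.3% higher and 29.1% lower after 1 h, and 51% higher and 26.7% lower after 2 h. With the digit added to the fit within each organ, the calls after 2 h fell from 54 to 41 of the 79. They fell from 33 to 17 of the 51 and from 6732 to 5327 of the 8661. This term rests on root PEG 1 h and shoot PEG 2 h, the only groups with both digits of their organ. It does not adjust for a digit difference between the organs. Without the digit, 41 of the 79 were called at both times, 21 of them higher and 20 lower in root. Of the 51, 28 were called at both times, 13 higher and 15 lower, and no sign differed between the times in either direction. No share of all genes called at both times is given, so nothing is read from these counts.

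**Figure D2:**
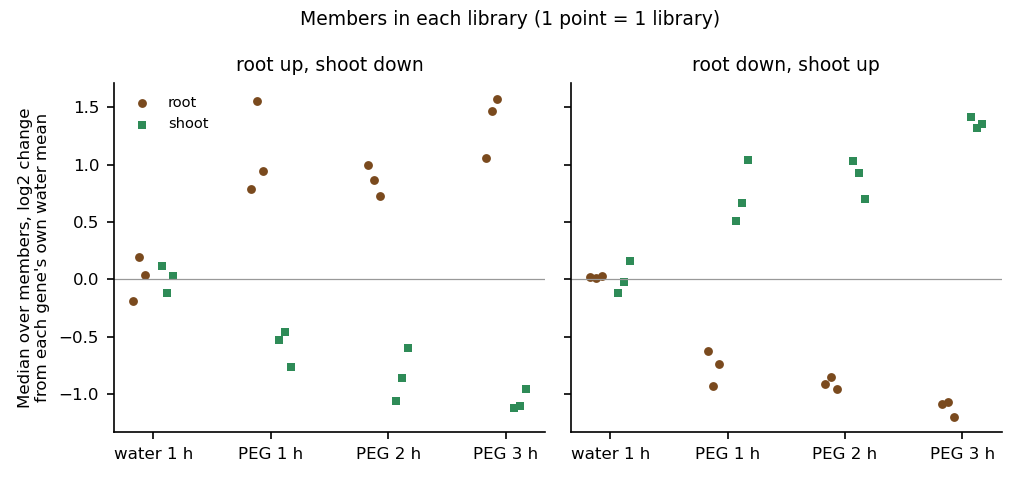
Median over the 79 genes (left) and the 51 genes (right) of the log2 change from each gene's own water mean, for each library, by condition; circles are root libraries and squares are shoot libraries. At 1 h replicate 2 lies highest among the root libraries of the 79 genes (1.55), and replicate 3 highest among the shoot libraries of the 51 genes (1.04).

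PEG 1 h and 2 h values against water share the water libraries with the rule, so they are given side by side only. For the 79 genes the median change in root was 1.01 after 1 h and 0.87 after 2 h, and in shoot it was -0.58 and -0.89. For the 51 genes it was -0.77 and -0.90 in root, and 0.70 and 0.88 in shoot. In every PEG library of either organ the median over the members lay on the side that the 3 h values define.

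Single libraries stood apart within groups. After 1 h of PEG, replicate 2 was the highest root library for 50 of the 79 genes (63.3%), against 22.5% of all genes past the minimum. After 3 h, replicate 3 was the highest root library for 52 of the 79 (65.8%), against 28.7% of all. In shoots after 1 h, replicate 3 was the highest library for 39 of the 51 genes (76.5%), against 28.1% of all. Without replicate 3 of root PEG 3 h, 63 of the 79 and 41 of the 51 genes still met the rule. The library codes also differ with the contrast: all water libraries of an organ carry one code digit and all 3 h libraries the next, so a batch shown by this digit and the treatment cannot be told apart at 3 h.

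Small heat shock proteins, chaperones that bind unfolding proteins, were 6 of the 79 genes (7.59%) and 18 of the 8661 (0.208%), and none of the 51. Over all 18 the median change was 0.09 in root and -0.46 in shoot, with 11 above water in root and below it in shoot by any amount and 2 the reverse, while over all 8661 genes these counts were 1952 and 1535. All 6 of the 6 members still met the rule without replicate 3 of root PEG 3 h. Of the 6, HSP17.4 and AT5G51440 alone met it whichever single library of the rule was left out. AT1G07400 did not meet it with another scaling of the counts (TMM). HSP17.6A (AT5G12030) stood first by the change in its less changed organ. Its normalized count in root was 0.773, 1.66 and 2.21 in the 3 water libraries, 10.6, 3.99 and 0 after 1 h of PEG, 6.83, 11.7 and 6.09 after 2 h and 16.8, 23.1 and 4.80 after 3 h. In shoot it was 9.68, 20.5 and 8.66 in water, 5.84, 6.85 and 3.56 after 1 h, 9.38, 8.34 and 2.61 after 2 h and 2.42, 0.802 and 0.757 after 3 h. The highest root library in water and the highest shoot library after 3 h held few counts, and the groups did not overlap in either organ. It had too few counts for the shoot fit and was not tested there.

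AT1G07400, a class I small heat shock protein, had the highest mean count of them in root after 3 h and in shoot in water. Root libraries held 17.01, 14.98 and 11.1 in the 3 water libraries, 56.3, 23.2 and 21.9 after 1 h of PEG, 68.8, 53.3 and 42.6 after 2 h and 83.2, 69.8 and 48.03 after 3 h. Shoot libraries held 49.5, 52.7 and 59.5 in water, 29.2, 28.3 and 28.5 after 1 h, 41.7, 41.7 and 28.7 after 2 h and 31.5, 37.7 and 22.7 after 3 h. Every root PEG library was above every water library, and all shoot PEG libraries were below all water libraries. HSP17.4 (AT3G46230) had 16.2, 11.6 and 5.16 in root in water and 34.8, 29.97 and 22.4 after 3 h, against 26.9, 22.4 and 12.99 and 14.5, 6.42 and 7.57 in shoot. Its root groups did not overlap and its shoot groups did.

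AT5G51440, another HSP20-like chaperone, went from 9.11 ± 2.54 to 23.3 ± 6.87 in root (SD, n = 3) and from 24.7 ± 6.56 to 6.08 ± 3.92 in shoot. AT1G53540 went from 7.57 ± 1.45 to 29.3 ± 4.22 in root and from 14.96 ± 8.995 to 6.99 ± 4.46 in shoot. AT1G59860 had the least root difference of the 6, 1.1, with -1.12 in shoot, and its groups overlapped in both organs. HSP101 (AT1G74310), a disaggregase that pulls proteins out of clumps, held 20.1, 20.8 and 19.2 in the 3 water libraries, 40.4, 17.57 and 21.9 after 1 h of PEG, 57.3, 30.8 and 36.5 after 2 h and 52.9, 58.5 and 18.7 after 3 h in root. In shoot it held 27.96, 39.0 and 31.4 in water, 13.6, 21.4 and 16.02 after 1 h, 30.2, 16.7 and 3.92 after 2 h and 10.9, 13.6 and 10.6 after 3 h. The third root library at 3 h was no higher than water, whereas every shoot library at 3 h was below every water library. Class I small heat shock proteins are close copies of each other, and reads from their 3′ ends may be split between them.

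A written list of heat shock chaperones and factors held 5 of these members. After 3 h, edgeR called 10 of its 14 tested genes higher in root and 0 lower, where 21.1% of all 10941 genes were called higher, and 3 of 11 higher and 4 lower in shoot, where 14.5% and 11.5% of all 13769 genes were called. This contrast chose the members, and nothing is read from its counts in this or the other written lists. HSP90.1, a cytosolic chaperone, differed from water by 0.74 in root and -2.22 in shoot, just outside the rule through root. HSP70 differed from water by 0.71 and -0.83. Of the heat shock factors in the list, HSFA3 differed from water by 2.24 in root and 0.78 in shoot, and HSFB2A by 1.27 and 1.26.

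**Figure D3:**
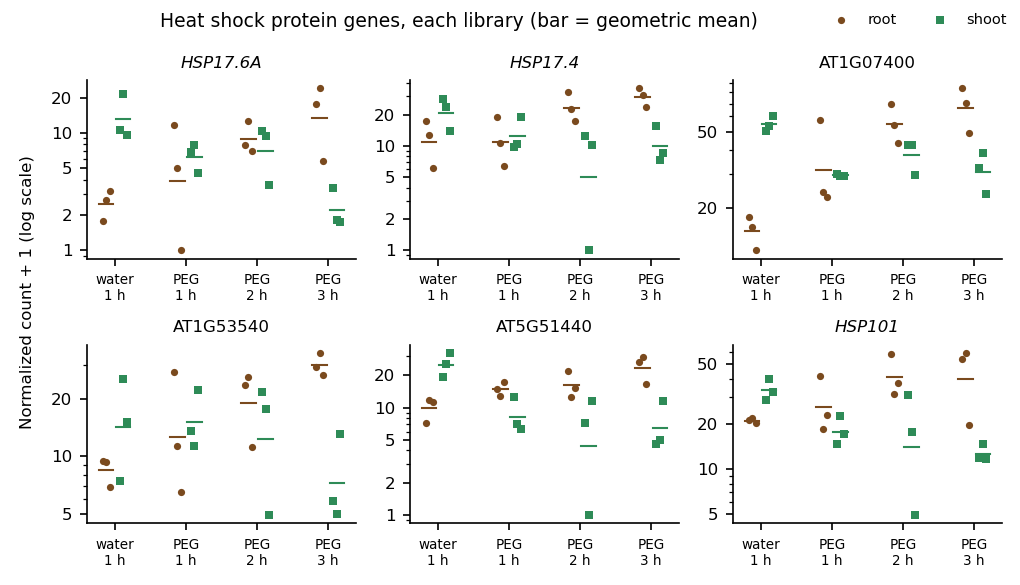
Normalized count + 1 (log scale) of 6 heat shock protein genes in each library by condition; circles are root, squares are shoot, and bars are geometric means of 3 libraries. For HSP17.6A the root and shoot libraries change places between water and PEG 3 h, while for HSP101 1 root library at 3 h stays at the level of water.

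Ribosomal proteins were the largest group by product name, with 12 of the 79 genes (15.2%) and 244 of the 8661 (2.82%), and none of the 51. Over all 244 the median change was 0.16 in root and -0.47 in shoot, and 136 of them were above water in root and below it in shoot by any amount, whereas 2 were the reverse. RPL23AA (AT2G39460), a protein of the large subunit near the peptide exit, had the highest root difference of the 12. Root libraries held 49.5, 58.2 and 67.1 in the 3 water libraries, 140.3, 1061 and 402 after 1 h of PEG, 286, 234 and 169 after 2 h and 164, 502 and 844 after 3 h. Shoot libraries held 1274, 747 and 1015 in water, 710.05, 813 and 581 after 1 h, 414, 584 and 619 after 2 h and 539.8, 408 and 628 after 3 h. Every root PEG library lay above every water library, but replicates of 1 group differed widely.

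RPS28 (AT5G64140), a small-subunit protein, had a like spread. Its root counts were 15.5, 14.1 and 15.5 in the 3 water libraries, 26.6, 428 and 71.2 after 1 h of PEG, 33.1, 25.8 and 14.2 after 2 h and 27.1, 103 and 222 after 3 h. Its shoot counts were 775, 437 and 646 in water, 477, 577 and 398 after 1 h, 287, 259 and 337 after 2 h and 286, 282 and 403 after 3 h. Replicate 2 of root PEG 1 h and replicate 3 of root PEG 3 h were the highest of their groups in both genes. AT4G26230, a ribosomal protein L31e, was more even, with 145, 237 and 202 in the 3 water libraries, 356, 564 and 471 after 1 h of PEG, 405, 382 and 317 after 2 h and 409.96, 418 and 656 after 3 h in root. In shoot it had 472, 316 and 367 in water, 281, 347 and 266 after 1 h, 191, 317 and 270.3 after 2 h and 197, 203 and 235 after 3 h. Root PEG libraries were all above water and shoot PEG libraries at 3 h were all below it.

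Other members of cytosolic families were AT2G37600 (L36e), AT3G59540 (L38e), AT5G59240 (S8e) and the paralogs AT3G02190 and AT4G31985 (L39), between which reads may be split. AT5G59240 was higher in root than in shoot in water, with 47.8 ± 5.24 in root and 15.8 ± 4.40 in shoot, while AT3G59540 had 8.60 ± 1.06 and 438 ± 169.9 (SD, n = 3). RPS10 (AT3G22300), of the mitochondrial ribosome, went from 10.8, 11.6 and 5.90 to 13.5, 21.6 and 39.5 in root and from 89.3, 60.5 and 63.8 to 37.5, 20.9 and 26.5 in shoot. HLL (AT1G17560), also mitochondrial and needed for ovule growth, had differences of 2.27 in root and -0.87 in shoot, and AT3G18240 and AT5G64670 complete the group. Over the 12 genes the root change ranged from 0.80 to 2.81 and the shoot change from -1.32 to -0.82, and groups did not overlap in 10 of 12 genes in either organ. Without replicate 3 of root PEG 3 h, 8 of the 12 still met the rule. Only RPS10 met it whichever single library of the rule was left out. HLL, AT3G18240, AT3G59540, AT4G26230, AT4G31985 and AT5G64670 did not meet it with TMM scaling.

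Factors that build ribosomes in the nucleolus were 4 of the 79 genes (5.06%) and 21 of the 8661 (0.242%). AT5G66540, a protein of the U3 particle that cuts ribosomal RNA precursors, held 21.6, 25.8 and 22.9 in the 3 water libraries, 44.6, 60.7 and 19.2 after 1 h of PEG, 43.6, 63.3 and 54.8 after 2 h and 52.2, 59.4 and 71.5 after 3 h in root. Its shoot libraries held 61.3, 48.8 and 59.5 in water, 34.1, 40.3 and 30.3 after 1 h, 20.8, 25.03 and 36.6 after 2 h and 21.8, 28.1 and 22.7 after 3 h. The organs had changed places by 3 h with no overlap between groups. AT1G31660, a bystin-like protein of the small-subunit pathway, went from 34.01, 44.1 and 44.98 to 81.9, 90.9 and 80.05 in root and from 32.3, 37.1 and 29.2 to 26.6, 14.4 and 15.1 in shoot. AT5G27120, similar to NOP56, and AT5G57120, a nucleolar phosphoprotein, differed from water by 1.0 and 1.46 in root and by -1.0 and -0.85 in shoot. Without replicate 3 of root PEG 3 h, 4 of the 4 still met the rule. Of the 4 only AT5G66540 met it whichever single library of the rule was left out. AT1G31660 and AT5G57120 did not meet it with TMM scaling. Over all 21 such genes the medians were 0.67 in root and -0.68 in shoot, with 17 above water in root and below it in shoot and 1 the reverse.

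WD40 repeat proteins, scaffolds of which several work in ribosome assembly, were 5 of the 79 genes (6.33%) and 88 of the 8661 (1.02%), and 1 of the 51. Over all 88 the median change was 0.05 in root and 0.03 in shoot, with 20 above water in root and below it in shoot and 19 the reverse. AT1G24530 held 8.50, 17.5 and 7.37 in root in water and 19.3, 21.6 and 35.2 after 3 h, against 343, 350.03 and 329 and 111, 105 and 109 in shoot. AT2G18900 had the highest root difference of the 5, from 0, 1.66 and 2.21 to 9.67, 7.86 and 13.3, with 46.2, 50.7 and 33.5 in shoot in water and 21.8, 20.1 and 13.6 after 3 h. Without replicate 3 of root PEG 3 h, 3 of the 5 still met the rule. RACK1B_AT (AT1G48630), a ribosome-bound scaffold outside this group by its product name, went from 9.99 ± 3.03 to 30.3 ± 16.9 in root and from 135 ± 27.4 to 68.9 ± 6.001 in shoot (SD, n = 3). A written list of abundant ribosome biogenesis genes held no member. In it edgeR called 2 of 8 genes higher and 0 lower in root and 0 of 9 higher and 5 lower in shoot, where 21.1% and 19.5% of all genes were called higher and lower in root and 14.5% and 11.5% in shoot. FIB2, the fibrillarin that methylates ribosomal RNA, differed from water by 0.67 in root and -1.31 in shoot.

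A short element was frequent in promoters of this direction. The telo box, AAACCCTA, known from promoters of genes for the translation machinery, was searched on both strands in the 250 bases before and 50 bases after each annotated start (RefSeq, assembly TAIR10.1). It was found in 17 of 78 promoters of the genes higher in root and lower in shoot (21.8%), in 0 of 51 promoters of the other direction, and in 5.75% of the 8637 promoters of genes past the minimum. Among the ribosomal protein genes past the minimum 40.6% had it, and so did 7 of the 12 members. The 17 also include PCNA1, GAMMA-H2AX and PUR5, outside that group. A match is a description of the letters, not a binding site. Genes past the minimum with the box had median changes of 0.05 in root and -0.34 in shoot, against -0.06 and -0.10 without it. In some members the box began after the annotated start, at position 24 in RPS10, 39 in HLL, 31 in MEE21 and 30 in AT3G06530. It began after the start as well in AT1G24310 (30), AT1G29320 (32), AT1G31660 (11) and AT5G42150 (5). The sequences before the start of 6 members with the box before it are printed 5′ to 3′, up to the base before the annotated start. The box or its reverse complement TAGGGTTT is in capitals:

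PCNA1: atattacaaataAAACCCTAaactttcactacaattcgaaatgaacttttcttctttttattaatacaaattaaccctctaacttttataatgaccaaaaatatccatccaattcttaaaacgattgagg
AT3G02190 (L39): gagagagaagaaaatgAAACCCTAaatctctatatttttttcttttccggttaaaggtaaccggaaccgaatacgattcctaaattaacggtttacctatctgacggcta
AT2G37600 (L36e): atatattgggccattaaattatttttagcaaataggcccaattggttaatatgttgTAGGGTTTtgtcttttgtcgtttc
AT5G59240 (S8e): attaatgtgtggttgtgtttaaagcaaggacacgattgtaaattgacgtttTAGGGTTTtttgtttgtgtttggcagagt
AT5G27120 (NOP56-like): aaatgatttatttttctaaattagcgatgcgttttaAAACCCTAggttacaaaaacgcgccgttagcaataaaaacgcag
PUR5: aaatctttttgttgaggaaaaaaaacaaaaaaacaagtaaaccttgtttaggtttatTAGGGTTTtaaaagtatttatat

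PCNA1, AT5G27120 and PUR5 are read from the plus strand and the others from the minus strand of the assembly. The box stood at position -118 in PCNA1 and at -23 in PUR5, counted to its first base from the annotated start. The files do not name a genome build, so no coordinates are given. Another element of such promoters, site II (TGGGCC), was in 24.4% of the same 78 promoters, in 5.88% of the 51 and in 20.9% of all. It was in 5 of the 12 ribosomal members, against 61.1% of all ribosomal protein genes past the minimum. All 6 of the 6 small heat shock members had it, against 50% of such genes past the minimum. The GCC box (GCCGCC) was in 8.97%, 5.88% and 2.59%.

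The genes described next were chosen singly and were not counted as a group. PCNA1 (AT1G07370), the sliding clamp of DNA replication, held 2.32, 4.99 and 2.21 in the 3 water libraries, 3.19, 22.4 and 5.48 after 1 h of PEG, 4.20, 4.16 and 1.01 after 2 h and 7.74, 8.35 and 18.7 after 3 h in root. The shoot values were 39.8, 31.2 and 38.96 in water, 19.5, 17.99 and 10.7 after 1 h, 12.5, 8.34 and 18.3 after 2 h and 12.1, 18.5 and 12.1 after 3 h. All shoot PEG libraries were below water, while root was above water in every library at 3 h but not at 1 and 2 h. GAMMA-H2AX (AT1G54690), the histone variant that is phosphorylated at DNA breaks, held 6.18, 14.1 and 11.8 in the 3 water libraries, 6.38, 62.3 and 19.2 after 1 h of PEG, 11.6, 9.99 and 32.5 after 2 h and 23.8, 40.8 and 68.3 after 3 h in root. Its shoot counts were 129, 106 and 146 in water, 85.7, 75.4 and 62.3 after 1 h, 46.9, 58.4 and 69.2 after 2 h and 48.4, 58.6 and 49.2 after 3 h. The root libraries at 3 h differed widely among themselves, yet all were above water.

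NAP1;3 (AT5G56950), a nucleosome assembly protein, went from 29.4, 29.95 and 28.8 to 54.1, 52.1 and 64.6 in root and from 44.1, 32.2 and 21.6 to 8.47, 19.3 and 17.41 in shoot. PUR5 (AT3G55010), an enzyme of purine synthesis, went from 9.58 ± 6.12 to 43.4 ± 15.99 in root and from 55.7 ± 13.99 to 25.4 ± 11.5 in shoot (SD, n = 3). A written list of cell division genes held no member. Over its 5 genes past the minimum the median change was 0.68 in root and -0.17 in shoot. In it edgeR called 4 of 6 genes higher and 0 lower in root and 0 of 7 higher and 1 lower in shoot. Over all genes 21.1% and 19.5% were called higher and lower in root and 14.5% and 11.5% in shoot. One gene of the list, CYCD3;1, a cyclin of the entry into the cycle, differed from water by 0.68 in root and -1.03 in shoot.

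**Figure D4:**
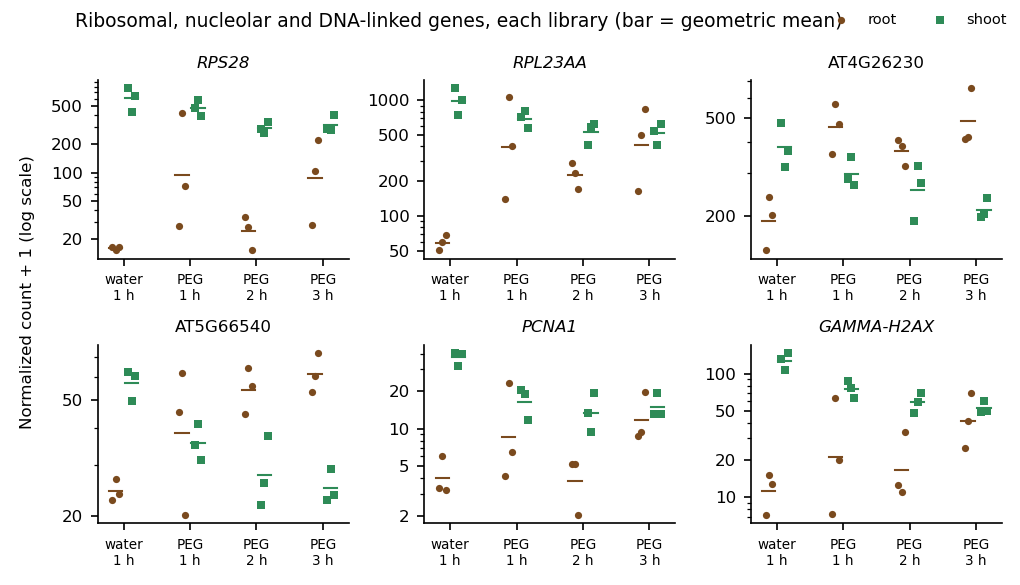
Normalized count + 1 (log scale) of 3 ribosomal protein genes, a U3 particle gene (AT5G66540), PCNA1 and GAMMA-H2AX in each library by condition; circles are root, squares are shoot, and bars are geometric means of 3 libraries. In RPS28 and RPL23AA the root replicates at 1 and 3 h are spread widely, and in AT5G66540 root lies above shoot at 3 h.

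EXPA6 (AT2G28950), an expansin that loosens cell walls, was a shoot gene, with 341, 278 and 296 in water, 244, 271 and 153 after 1 h, 153, 184 and 188 after 2 h and 131, 109 and 126 after 3 h. In root it was low, with 6.18, 3.33 and 2.95 in the 3 water libraries, 1.06, 24.8 and 16.4 after 1 h of PEG, 7.36, 3.33 and 3.04 after 2 h and 6.45, 12.8 and 20.3 after 3 h. The root groups at 3 h did not overlap, but the lowest PEG library, 6.45, was just above the highest water library, 6.18. SUC1 (AT1G71880), a sucrose-proton symporter, held 179, 201 and 148 in the 3 water libraries, 261, 372 and 337 after 1 h of PEG, 385, 272 and 265 after 2 h and 303, 438 and 481 after 3 h in root. In shoot it held 556, 584 and 527 in water, 547, 526 and 406 after 1 h, 378, 117 and 406 after 2 h and 224, 233 and 246 after 3 h. Its groups did not overlap in either organ, and root had passed shoot by 3 h.

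AT1G75960, annotated as an AMP-dependent synthetase and ligase, had the highest root difference of all 130 genes, 2.83, with 6.96, 11.6 and 15.5 in the 3 water libraries, 47.8, 34.3 and 46.5 after 1 h of PEG, 60.4, 74.1 and 75.1 after 2 h and 94.1, 72.7 and 84.9 after 3 h. In shoot it had 109, 117 and 139.6 in water, 62.3, 74.5 and 79.2 after 1 h, 80.3, 25.03 and 54.8 after 2 h and 53.3, 49.7 and 59.03 after 3 h. Every root PEG library was above every water library, and every shoot PEG library was below. AT1G73600, annotated as a methyltransferase, differed from water by 1.74 in root and -1.44 in shoot. CSLC04 (AT3G28180), which makes the backbone of the wall polymer xyloglucan, was highest in root after 1 h, with 196, 176 and 137 in the 3 water libraries, 673, 695 and 548 after 1 h of PEG, 479, 604 and 476 after 2 h and 389.98, 292 and 235 after 3 h. In shoot it went from 241, 271 and 218 to 142, 149 and 96.1.

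CYP86A4 (AT1G01600), a fatty acid hydroxylase of cutin synthesis, went from 57.1 ± 3.46 to 126 ± 12.6 in root and from 61.8 ± 4.20 to 26.8 ± 7.52 in shoot (SD, n = 3). MSRB7 (AT4G21830), which repairs oxidised methionine, had 52.9, 104 and 155 in root after 3 h and 27.8, 39.1 and 29.5 in water, and its shoot groups overlapped. ORA59 (AT1G06160), a factor of the jasmonate and ethylene defence response, was the only AP2/ERF gene of this direction, with differences of 1.53 and -0.81. DSS1(V), of the proteasome lid, differed from water by 1.47 and -1.11. AT2G03370, annotated as an acetylglucosaminyl transferase, met the rule through single libraries, with 0.645, 2.95 and 49.1 in root after 3 h and 10.8, 10.7 and 179.6 in shoot in water.

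Members of this direction with no symbol stood high by the rule as well. AT5G38890, with an OB-fold that binds nucleic acids, went from 18.6, 29.1 and 28.02 to 48.3, 55.5 and 73.6 in root and from 38.7, 32.2 and 42.2 to 7.26, 8.02 and 15.9 in shoot. AT5G01015, uncharacterized, went from 6.18, 0.832 and 5.16 to 20.6, 16.2 and 17.1 in root and from 74.2, 73.1 and 78.99 to 36.3, 32.1 and 25.7 in shoot. Both kept their groups apart in each organ. AT3G55420 and AT2G07629, also uncharacterized, had log2 differences of 1.52 and 1.42 in root and of -1.89 and -2.01 in shoot, at mean counts of 24.1 and 13.04 in shoot in water. AT4G33560, a wound-responsive protein, held 15.5, 19.97 and 6.64 in the 3 water libraries, 51.01, 43.9 and 57.5 after 1 h of PEG, 17.3, 69.1 and 67.99 after 2 h and 113, 81.6 and 52.8 after 3 h in root. Its shoot libraries held 38.7, 16.6 and 23.8 in water, 31.2, 30.8 and 11.6 after 1 h, 8.34, 16.7 and 5.22 after 2 h and 10.9, 10.4 and 12.1 after 3 h. Its root groups at 1 and 3 h lay wholly above water.

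The members of this direction included enzymes of sugar nucleotides and walls besides CSLC04. GAE4 (AT2G45310), which makes galacturonic acid units for pectin, went from 65.3 ± 11.2 to 115 ± 18.9 in root and from 17.3 ± 3.72 to 8.09 ± 2.21 in shoot (SD, n = 3). RGP5 (AT5G16510), of the reversibly glycosylated protein family, had differences of 1.32 and -0.81, and its root groups overlapped. AO1 (AT5G20960), an aldehyde oxidase, went from 13.9, 14.1 and 14.01 to 32.9, 37.8 and 39.5 in root and from 35.5, 40.95 and 23.8 to 9.68, 23.3 and 20.4 in shoot. ACHT5 (AT5G61440), a chloroplast thioredoxin, went from 6.23 ± 0.713 to 15.6 ± 5.93 in root and from 70.9 ± 9.97 to 32.5 ± 7.54 in shoot. NRPB9B (AT4G16265), a subunit of RNA polymerase II, had differences of 1.19 and -0.91.

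Transcripts of this direction were short. The longest annotated transcript had a median of 1168 bases over 78 of the 79 genes and 1512 over the 51, against 1772 over all genes past the minimum. Genes were ranked by length and cut into 10 bins of like size. In the bin of the shortest (66 to 960 bases) 2.76% were of the 79, and in that of the longest (from 3154 bases) 0.579% were. The median shoot change at 3 h also moved with length, from -0.44 in the bin of the shortest to 0.02 in that of the longest, while the median root change was -0.06 and -0.11. The part of length in the members' values was not tested.

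In the genes lower in root and higher in shoot, AP2/ERF transcription factors stood first, with 7 of the 51 (13.7%) and 71 of the 8661 (0.82%). Over all 71 the median change was 0.16 in root and 0.89 in shoot, with 17 below water in root and above it in shoot by any amount and 3 the reverse, where 1535 and 1952 of the 8661 were. Without replicate 3 of root PEG 3 h, 5 of the 7 still met the rule. ERF53 (AT2G20880), a factor of the drought response, had the highest shoot difference. Shoot libraries held 12.9, 15.6 and 10.8 in water, 78.9, 89.9 and 342 after 1 h, 373, 242 and 148 after 2 h and 821, 825 and 788 after 3 h. Root libraries held 29.4, 22.5 and 25.8 in the 3 water libraries, 6.38, 3.99 and 0 after 1 h of PEG, 4.73, 8.33 and 12.2 after 2 h and 5.16, 5.40 and 10.7 after 3 h. In shoot every PEG library was above water, replicate 3 was far above the other libraries at 1 h, and every root PEG library lay below every water library.

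RAP2.1 (AT1G46768), a repressor of the DREB type that damps drought and cold responses, held 309.99, 253 and 314 in the 3 water libraries, 139, 95.03 and 159 after 1 h of PEG, 133, 144 and 118 after 2 h and 129.6, 110.05 and 119.5 after 3 h in root. The shoot values were 32.3, 43.9 and 49.8 in water, 54.5, 51.4 and 103 after 1 h, 99.02, 108 and 52.2 after 2 h and 137, 189 and 170.3 after 3 h. The organs crossed, with no overlap between PEG 3 h and water in either. CEJ1 (AT3G50260), also of the DREB type, had 89.3, 134 and 129 in water, 226, 259 and 366 after 1 h, 492, 384 and 458 after 2 h and 397, 505 and 439.7 after 3 h in shoot. In root it went from 849, 747 and 661 to 394, 559.6 and 315. In a written list of 14 CBF, DREB and ZAT factors, RAP2.1 was the sole member. There edgeR called 9 of 14 higher and 2 lower in root and 12 higher and 1 lower in shoot, against shares over all genes of 21.1% and 19.5% in root and 14.5% and 11.5% in shoot. DREB2A, for example, differed from water by 5.06 in root and 4.24 in shoot.

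RAP2.6 (AT1G43160), Rap2.6L (AT5G13330) and ABR1 (AT5G64750) are relatives within the ERF family, and ABR1 is known as a repressor of abscisic acid responses. RAP2.6 held 1007, 1167 and 1291 in the 3 water libraries, 416, 323 and 378 after 1 h of PEG, 475, 425 and 451 after 2 h and 458, 517 and 337 after 3 h in root. In shoot it held 55.9, 52.7 and 76.8 in water, 21.4, 24.8 and 72.99 after 1 h, 79.2, 25.03 and 65.3 after 2 h and 110.1, 107 and 125 after 3 h. Root was well below water at every time, while shoot was below every water library in 2 of 3 libraries at 1 h and above all of them in every library at 3 h. Rap2.6L went from 120.5 ± 5.48 to 46.1 ± 4.47 in root and from 45.4 ± 7.10 to 100.4 ± 10.8 in shoot (SD, n = 3). ABR1 was lowest in root at 1 h, with 174, 166 and 191 in the 3 water libraries, 43.6, 45.5 and 46.5 after 1 h of PEG, 127, 106 and 59.9 after 2 h and 108, 98.7 and 67.8 after 3 h. In shoot it had 54.8, 58.5 and 42.2 in water, 33.1, 50.5 and 55.2 after 1 h, 65.7, 41.7 and 75.7 after 2 h and 96.8, 94.7 and 104 after 3 h. AT4G16750, a further member of the family, differed from water by -1.12 and 1.19.

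**Figure D5:**
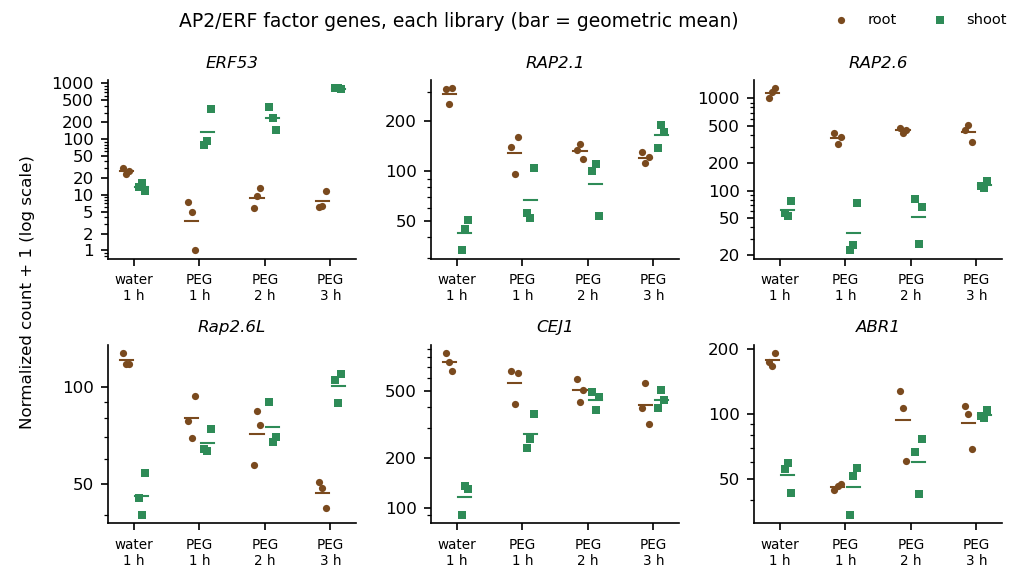
Normalized count + 1 (log scale) of 6 AP2/ERF factor genes in each library by condition; circles are root, squares are shoot, and bars are geometric means of 3 libraries. ERF53 lies between 10.8 and 29.4 in both organs in water and parts by 3 h, whereas RAP2.6 stays higher in root than in shoot in every condition.

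Other regulators were present singly. NAC046 (AT3G04060), a factor that promotes chlorophyll breakdown in ageing leaves, held 61.1, 85.7 and 81.1 in the 3 water libraries, 20.2, 15.97 and 19.2 after 1 h of PEG, 21.5, 14.2 and 18.3 after 2 h and 23.2, 23.1 and 18.1 after 3 h in root. Its shoot libraries held 10.8, 18.5 and 9.74 in water, 13.6, 20.6 and 26.7 after 1 h, 45.9, 16.7 and 13.1 after 2 h and 35.1, 35.3 and 59.8 after 3 h. Groups at 3 h did not overlap in either organ. FKF1 (AT1G68050), the blue light receptor that times flowering, had 46.2, 47.8 and 43.3 in water, 195, 202 and 206 after 1 h, 246, 275 and 261 after 2 h and 330.4, 300.03 and 371 after 3 h in shoot. In root it had 87.4, 84.9 and 86.3 in the 3 water libraries, 51.01, 53.5 and 68.4 after 1 h of PEG, 46.2, 44.96 and 45.7 after 2 h and 36.7, 47.7 and 45.4 after 3 h. Replicates were close in both organs, and all PEG libraries of each time lay on one side of water.

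FKF1 was the sole member of a written list of 19 clock and photoperiod genes in the table. In that list edgeR called 4 of 13 genes higher and 5 lower in root, and 13 of 18 higher and 1 lower in shoot, with all genes at 21.1% and 19.5% in root and 14.5% and 11.5% in shoot. GI differed from water by -0.61 in root and 1.02 in shoot, TOC1 by -0.62 and 1.24, and ZTL, the close relative of FKF1, by -0.90 and 0.38. PIL5 (AT2G20180), a phytochrome interacting factor that acts in seed germination, differed from water by -1.33 and 0.98. AFR, of phytochrome signalling, differed from water by -1.14 and 0.86. The ubiquitin ligases RHA3B and PUB38 differed from water by -1.36 and -0.89 in root and by 0.95 and 1.41 in shoot. IAMT1, which methylates auxin, stood near the threshold, with -0.83 and 0.88.

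The core of the abscisic acid response element, ACGTG, which lies within any G-box (CACGTG), was in 22 of 51 promoters of this direction (43.1%), in 24.4% of the 78 promoters of the other and in 28.5% of all. The G-box itself was in 11.8%, 7.69% and 9.36%, and the evening element (AAATATCT) in 11.8%, 7.69% and 6.48%. Dehydration responsive elements were in 9.80%, 7.69% and 6.69% (ACCGAC) and in 7.84%, 7.69% and 3.83% (GCCGAC). W-boxes were in 7.84%, 10.3% and 14.0% (TTGACC) and in 19.6%, 23.1% and 21.0% (TTGACT). A written list of abscisic acid and dehydration response genes held no member. Over its 22 genes past the minimum the median change was 1.23 in root and 2.58 in shoot. In TIP2;3, AT1G51090, AT1G68500 and AT4G16490 the core ACGTG was matched only after the annotated start. The sequences before the start of 4 members with the core before it are printed as above, with ACGTG or its reverse complement CACGT in capitals:

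NAC046: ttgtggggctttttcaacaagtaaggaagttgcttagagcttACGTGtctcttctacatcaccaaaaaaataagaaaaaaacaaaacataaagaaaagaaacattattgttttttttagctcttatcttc
RAP2.6: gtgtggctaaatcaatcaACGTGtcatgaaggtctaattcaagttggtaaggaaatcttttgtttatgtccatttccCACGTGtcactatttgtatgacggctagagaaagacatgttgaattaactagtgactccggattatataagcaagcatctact
EXL4: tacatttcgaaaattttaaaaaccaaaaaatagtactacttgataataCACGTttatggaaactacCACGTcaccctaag
FKF1: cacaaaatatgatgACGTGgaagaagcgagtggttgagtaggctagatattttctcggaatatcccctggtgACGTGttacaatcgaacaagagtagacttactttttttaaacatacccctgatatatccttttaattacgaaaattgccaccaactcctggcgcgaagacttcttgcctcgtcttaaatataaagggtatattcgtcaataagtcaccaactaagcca

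NAC046 is read from the minus strand and the other 3 from the plus strand. In RAP2.6 the matches at -83 and -82, on opposite strands, overlap as a G-box.

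TIP2;3 (AT5G47450), a channel of the vacuole membrane for water and ammonia, was a root gene, with 1580.1, 1509 and 1404 in the 3 water libraries, 903, 879 and 1103 after 1 h of PEG, 737, 863 and 773 after 2 h and 868, 724 and 494 after 3 h. In shoot it had 6.45, 5.85 and 6.49 in water, 12.7, 13.7 and 13.4 after 1 h, 6.25, 25.03 and 14.4 after 2 h and 8.47, 23.3 and 20.4 after 3 h, so its shoot change rests on few counts. Of 19 aquaporins listed, edgeR called 3 higher and 11 lower in root, and 11 higher and 2 lower in shoot, beside 21.1% and 19.5% of all genes in root and 14.5% and 11.5% in shoot. The plasma membrane aquaporin gene PIP1A differed from water by -1.41 in root and 0.60 in shoot, and PIP2B by -0.77 and 1.86, both outside the rule in one organ. AMT1;2 (AT1G64780), an ammonium transporter of the root, went from 291, 282 and 383 to 161, 143 and 192 in root and from 6.45, 7.80 and 16.2 to 30.3, 21.7 and 29.5 in shoot. KUP9 (AT4G19960), a potassium transporter, differed from water by -1.71 and 0.97.

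AT1G51090, annotated as a heavy metal transport protein, held 264, 257 and 299 in the 3 water libraries, 94.6, 95.8 and 65.7 after 1 h of PEG, 106, 112 and 69.01 after 2 h and 56.1, 60.4 and 59.2 after 3 h in root. The shoot values were 54.8, 60.5 and 77.9 in water, 58.4, 83.1 and 261 after 1 h, 244, 459 and 151 after 2 h and 284, 335 and 283 after 3 h. Root was below water at all times, and in shoot replicate 3 at 1 h was within the range of the later libraries. EXL4 (AT5G09440), a relative of the growth protein EXORDIUM, went from 1999, 2051 and 2147 to 991, 1168 and 936 in root and from 490.3, 491 and 514 to 1590.3, 1533 and 1812 in shoot. AGP2 (AT2G22470), an arabinogalactan protein of the cell surface, went from 4244 ± 618 to 2428 ± 568 in root and from 262 ± 40.4 to 497 ± 96.6 in shoot (SD, n = 3).

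CT-BMY (AT4G17090), the chloroplast beta-amylase that breaks starch down to maltose, held 183, 207 and 245 in water, 311, 423 and 823 after 1 h, 789, 951 and 704 after 2 h and 921, 997 and 847 after 3 h in shoot. In root it went from 308, 265 and 167 to 123.1, 101 and 148. UGT74F2, which joins glucose to salicylic acid, differed from water by -1.16 and 1.08, and its relative UGT71B1 by -0.95 and 1.23. AT1G11210, a protein of unknown function, had 59.1, 59.5 and 68.2 in water, 226, 250.1 and 369 after 1 h, 417, 367 and 381 after 2 h and 554, 510.2 and 539 after 3 h in shoot. In root it went from 320.04, 312 and 352 to 133, 201 and 159. AT2G39980, annotated as an acyl transferase, differed from water by -1.17 and 1.28. AT3G05640, of the protein phosphatase 2C family, whose best known members restrain abscisic acid signalling, had 23.7, 10.7 and 14.1 in water, 17.5, 18.8 and 48.1 after 1 h, 37.5, 33.4 and 32.6 after 2 h and 91.98, 77.8 and 87.8 after 3 h in shoot. In root it went from 56.4, 41.6 and 62.7 to 32.9, 18.7 and 30.95. Every shoot library at 3 h was above every water library, and every root library at 3 h below. Redox proteins of this direction were AT1G64500, a glutaredoxin, with differences of -0.95 in root and 1.58 in shoot, and AT3G62950, of the thioredoxin superfamily, with -1.03 and 1.23.

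Members with no symbol were among the first 12 here as well. AT4G06536, with a SPRY domain, went from 47.9, 37.4 and 44.2 to 15.5, 15.72 and 9.61 in root and from 1.08, 2.93 and 7.57 to 27.8, 36.9 and 32.5 in shoot. AT4G25433, with a LysM domain, went from 64.2, 79.9 and 78.9 to 23.8, 25.5 and 26.1 in root and from 5.38, 7.80 and 4.33 to 43.6, 45.7 and 50.7 in shoot. In both, no PEG 3 h library overlapped water. AT5G06570 (a hydrolase), AT3G27270 (a TLC domain protein), AT2G25625 and AT4G21215 had root differences of -1.36, -1.28, -1.40 and -1.14 and shoot differences of 1.60, 1.57, 1.28 and 1.26, in that order. Some members were very uneven between replicates. AT3G43850 ranged from 8.93 to 3324 within root PEG 2 h, and AT2G07870, annotated as other RNA, held 1.29, 89.4 and 45.9 in root after 3 h and 2.08, 0 and 2.61 in shoot after 2 h.

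The change from 1 h to 2 h of PEG used no library of the rule and was tested with the quasi-likelihood test of edgeR, adjusted over all genes in the fit (Benjamini-Hochberg). In root 2.23% of 10941 genes were called, 143 higher (1.31%) and 101 lower (0.923%). Of the 79 genes, 1 was called higher and none lower. It was AT1G14200, a RING ubiquitin ligase, which held 107, 79.1 and 87.6 after 1 h and 178, 169.9 and 116 after 2 h, a difference of 0.80 ± 0.19 (log2, SE), adjusted p = 0.032 by edgeR. Every 2 h library was above every 1 h library.

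Of the 51 genes, 2 were called higher in root and none lower. ABR1 differed by 1.16 ± 0.25 (log2, SE), adjusted p = 0.022 by edgeR. AT1G68500, of unknown function, held 122, 88.6 and 82.1 after 1 h and 295, 247 and 157 after 2 h, against 471, 594 and 706 in water, and differed by 1.27 ± 0.25 (log2, SE), adjusted p = 0.021. Both were thus closer to their water level after 2 h than after 1 h. All 3 calls were lost when 1 of several single libraries was left out: without replicate 1 of root PEG 2 h the adjusted p was 0.19 for AT1G14200, 0.13 for ABR1 and 0.074 for AT1G68500. They were lost as well without replicate 2 of root PEG 2 h and without replicate 2 or 3 of root PEG 1 h, and ABR1 also without replicate 1 of root PEG 1 h.

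In shoot edgeR called 0 of 13769 genes between 1 h and 2 h, with 966 at an unadjusted p under 0.05, among them 8 of the 77 tested and 7 of the 51 members. DESeq2 called 2 genes in all and 1 of the 51. Without replicate 3 of shoot PEG 1 h, edgeR called 77 genes, of which 2 were of the 79 and 9 of the 51. The difference between root and shoot in this change was called for 0 of 15472 genes, with 1433 at an unadjusted p under 0.05, among them 9 of the 79 and 8 of the 51. DESeq2 called 4 genes and no member there. Of the 79 genes AT1G14200 had the lowest p, with 1.21 ± 0.29 (log2, SE), adjusted p = 0.24 by edgeR. Next were AT1G75960 (1.06, adjusted p = 0.34), AT2G37600 (-1.68, adjusted p = 0.41), AT1G31660 (1.05, adjusted p = 0.41), AT3G02190 (-1.73, adjusted p = 0.49) and AT4G33560 (1.77, adjusted p = 0.51), in log2. Of the 51 genes AT2G07870 had the lowest p, with 5.33 ± 1.86 (log2, SE), adjusted p = 0.41. Next were AT4G21570 (-1.65, adjusted p = 0.43), AMT1;2 (-1.11, adjusted p = 0.45), RHA3B (-0.47, adjusted p = 0.49), AT1G11210 (-0.60, adjusted p = 0.49) and CEJ1 (-0.64, adjusted p = 0.52).

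Single members show the organ levels in those libraries, with edgeR's adjusted p. TIP2;3 was higher in root after 1 h by 6.21 ± 0.24 (log2, SE), adjusted p = 9.4e-22. ERF53 was lower in root after 1 h, with -5.20 ± 0.77 (log2, SE), adjusted p = 7.6e-06, and was higher in root than in shoot in every water library. FKF1 was lower in root after 2 h, with -2.27 ± 0.17 (log2, SE), adjusted p = 2.5e-14. Among the other direction, EXPA6 was lower in root after 2 h, with -4.82 ± 0.48 (log2, SE), adjusted p = 4.3e-09. AT5G66540 did not pass after 1 h, with 0.50 ± 0.27 (log2, SE), adjusted p = 0.089, and was higher in root after 2 h, with 1.15 ± 0.31 (log2, SE), adjusted p = 8.8e-04. For RPL23AA neither time passed: the difference was -0.24 ± 0.58 (log2, SE), adjusted p = 0.71 after 1 h and -0.96 ± 0.62 (log2, SE), adjusted p = 0.16 after 2 h.

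For the contrast of the rule, in which 40.6% of all genes tested in root and 26% in shoot were called in either direction, edgeR called 64 of the 79 genes higher in root, where 21.1% of all genes were called higher, and 60 of 77 lower in shoot, where 11.5% were. It called 43 of the 51 lower in root, where 19.5% were, and 47 of the 51 higher in shoot, where 14.5% were, and nothing is read from these counts. AT2G07629 and HSP17.6A had too few counts for the shoot fit. Just inside the threshold lay AT4G31985, with differences of 0.80 in root and -0.87 in shoot, and AT5G59240, with 0.80 and -1.27. Just outside lay AT5G20660, with 1.2 and -0.80, and MIOX2, an enzyme of inositol breakdown, with 0.80 and -0.97. In the other direction AT4G21570 (-0.81 and 0.89) and AT4G24050 (-0.82 and 0.83) were just inside, and AT3G49650 (-0.82 and 0.80) and AT3G18560 (-0.79 and 1.29) just outside.

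Annotated loci overlapped another gene in 22 of 78 members of the first direction, 20 of them on the opposite strand. In the second direction they did so in 12 of 51, all on the opposite strand. No share over all genes is given, so nothing is read from these counts. HSP101, HSP17.4, GAMMA-H2AX, AT1G14200, FKF1 and ABR1 overlap a gene on the opposite strand, and RPS28 one on its own strand. The sources used here do not state whether the counting used strand, so reads of such pairs may be mixed. The loci AT2G07629 and AT2G07870 are uncertain as well, since that stretch of the chromosome holds a copy of mitochondrial DNA.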

How the data were processed

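Transcripts of 24 libraries (3 per group, 8 groups) were counted by MARS-seq. Per the submitters' processing notes, bcl2fastq, cutadapt, STAR 2.4.2a, HTSeq and DESeq2 were used, with no roles named. The genome build, the strand setting and any collapse of molecular identifiers are not given in the sources used here. The deposited table holds raw counts per gene and, per the file headers, a normalized signal, in which the authors divided the counts by 1 size factor per library. Its deposited log2 values, p-values and mean columns were not used. No column of per-sample values was left without a sample.

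The members and all lists were chosen with earlier results of these data known, and the groups by product name after the members were known. Changes are differences of mean log2(normalized count + 1), and this scale understates the change of low genes. Raw counts were fitted with edgeR 4.0.16 (R 4.3.3; TMM scaling, default filter on low counts, robust quasi-likelihood F test, Benjamini-Hochberg adjustment over all genes tested, threshold 0.05), for 12 libraries per organ or all 24. DESeq2 1.42.0 was an alternative. The code was tested on simulated data. The replicates are pools of seedlings, and 24 replicate pairs differed by more than counting noise (chi-square per degree of freedom 2.63 to 8.91).

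Named genes are, per direction, the 12 with the largest smaller change, members of any list, the 6 with the lowest p for the organ difference between 1 and 2 h, and those at the threshold. Other members named were chosen after their values were seen. Libraries were treated as unpaired. Samples with the same replicate letter did not deviate together, but this cannot show whether they were paired. Promoters were matched by locus identifier to RefSeq (TAIR10.1), which holds 18125 of the 18240 identifiers.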

Additional observations from a re-analysis of the deposited data

Results flagged for a closer look

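Members that stood on opposite sides of water in the 2 organs in every library at earlier times were counted. After 1 h of PEG, 20 of the 79 genes were above all water libraries in root and below all of them in shoot, and 21 of the 51 were the reverse, against 186 (2.15%) and 210 (2.42%) of the 8661 genes past the minimum. After 2 h these counts were 31 and 25, against 221 (2.55%) and 218 (2.52%). The water libraries are shared with the rule, so nothing is read from the higher shares of the members. The difference between the organs was not tested here, because those water libraries chose the members.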

How the results depend on the processing

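The number of members depended on the rule. The 79 and 51 genes became 206 and 125 with a threshold of 0.6, 31 and 23 with a threshold of 1, and 217 and 99 with no minimum. A pseudocount of 5 left 47 of the 79, and a minimum of 20 also left 47. Leaving out 1 library of the 4 groups gave 67 to 95 and 48 to 60 genes. Of the members, 23 of the 79 and 31 of the 51 were kept in all 12 such settings, and 61 and 45 were kept with TMM scaling.

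In root between 1 and 2 h, the calls of 1 of the 79 genes and 2 of the 51 became 2 and 4 with DESeq2, 2 and 1 in a fit of all 24 libraries, and 6 and 1 with the digit of the library code added. They were 2 of the 79 with DESeq2 size factors and 2 with the replicate letter as a block, and 1 of the 51 with no filter. Leaving out 1 library gave 0 to 6 and 0 to 3. Over all genes the 244 calls became 397 with DESeq2, 375 with the digit, 158 in the fit of all libraries and 68 to 381 when 1 library was left out. In shoot DESeq2 called 1 of the 51, and leaving out 1 library gave 0 to 2 and 0 to 9. With the digit as a term within each organ, fewer genes differed between root and shoot. After 2 h it was 41 rather than 54 of the 79 and 17 rather than 33 of the 51. Of all 15472 genes it was 8659 rather than 12867. After 1 h it was 41 rather than 45, 27 rather than 31 and 11710 rather than 12745. The difference of AT2G42110 after 1 h then turned to -0.15 (adjusted p = 0.87 by edgeR). The cause was not tested. Samples with the same replicate letter did not deviate together (correlations of -0.33 to 0.18 between organs over 12 pairs and -0.48 to 0.22 between 1 and 2 h over 6). These correlations cannot show whether root and shoot of one letter came from the same seedlings. With each treatment and letter as a block, root and shoot differed in 12480 of all 15472 genes after 1 h and in 12611 after 2 h. Other results named kept direction and side of the threshold in 4235 comparisons of a result with a setting, lost the call in 176, moved in 16 and reversed in 1.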
